A study of Homo sapiens with 4 samples.

Results

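The genes described are 10 components of TGF-beta and activin signalling in Hs746T cells: the ligand genes TGFB1, TGFB2, TGFB3, INHBA and INHBB, the receptor genes TGFBR1, TGFBR2 and TGFBR3, the ligand-binding protein gene FST and the TGF-beta-induced gene TGFBI. They were chosen by symbol from 19736 genes that could be named on the array, with earlier results of these data known. Each is represented by a single probe, so 10 of 34127 probes are concerned. Hs746T is an established gastric carcinoma line that carries both an amplification and a skipping mutation of MET. Total RNA was hybridised to 4 single-colour Agilent arrays on 1 slide, with 1 array per condition. The conditions were DMSO (the vehicle control), PHA665752 (a small-molecule inhibitor of MET), sc siRNA (a scrambled sequence) and MET siRNA, the transfected cells being harvested after 48 h; 1 of 3 designed siRNAs, the most effective, was used. The dose and duration of PHA665752 on the array are not given in the sources used here.

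TGF-beta and activin are secreted dimers that bring together a type I and a type II serine/threonine kinase receptor. The type I receptor then phosphorylates SMAD2 and SMAD3, which enter the nucleus with SMAD4. The 3 TGF-beta isoforms are secreted in a latent form and share TGFBR2 and TGFBR1, TGFBR3 (betaglycan) being a co-receptor that presents ligand, TGF-beta 2 in particular. INHBA and INHBB encode the beta A and beta B subunits of activins and inhibins, and follistatin, the product of FST, binds activin and keeps it from its receptors. In carcinomas the pathway is known for growth arrest at early stages and for matrix production and epithelial-mesenchymal transition later on.

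The values are processed signals, each array being scaled so that its 75th percentile equals 1000; log2 ratios are differences of the scaled log2 signals. No condition was replicated, so nothing could be tested, and precision is limited by how few arrays there are. The ± after a scaled signal or ratio is the error that the scanning software estimated for a spot, which does not cover differences between cultures. Between repeated spots of an array the noise of a log2 ratio had an SD of 0.078. Repeated spots share an RNA sample, so neither this SD nor an SE between spots covers differences between cultures. As a further yardstick, sc siRNA was set against DMSO, a pair that shares an array with each treatment pair. MET itself, measured by probe A_23_P359245 (NM_000245), had scaled signals of 223677 in DMSO, 117741 in PHA665752, 228710 in sc siRNA and 90720 in MET siRNA cells, so the siRNA array had the lowest value and the controls the highest. Of 13 gastric and epithelial markers, 12 were on the array and 8 well above background throughout, among them EPCAM and KRT18, whereas KRT20 and GKN1 were on none. On the MET siRNA array CDH1 was not well above background and CLDN18 was, the reverse of the sc siRNA array. Of 4 mesenchymal markers (VIM, CDH2, ZEB1 and TWIST1), 3 were well above background on every array. All 4 were in DMSO and PHA665752 cells. Their summed signal in DMSO cells was 302 times the 75th percentile, against 48.9 times for the 12 gastric and epithelial markers. These are sums of linear signals that include markers not well above background. A single abundant transcript can dominate such a sum, so the sums do not rank mesenchymal over epithelial identity.

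Among the TGF-beta ligands, TGFB2 and TGFB1 were higher with PHA665752 than with DMSO, and TGFB3 differed little. TGFB2 (probe A_24_P402438, NM_003238) had a scaled signal of 19.0 ± 3.31 in DMSO, 97.8 ± 10.3 in PHA665752, 27.5 ± 3.91 in sc siRNA and 22.5 ± 5.24 in MET siRNA cells. The inhibitor array thus stood apart from the other 3, which lay close together near the detection limit. The TGFB2 log2 ratio was 2.36 ± 0.29 with PHA665752, a 5.15-fold difference that exceeded those of 98.5% of the 14318 genes with a ratio, and the controls differed by 0.53 ± 0.32. With normexp background correction, which compresses dim probes, it was 0.98 and fell short of 2-fold. TGFB2 was not well above background on the MET siRNA array, at an unscaled signal of 19.3. On the DMSO array it was, at 18.8. The MET siRNA array had 61.1% of probes well above background, against 67.4% to 68.2% on the others. Because of this call, the TGFB2 log2 ratio of the siRNA pair is a bound, set by its own dim signal, at -0.29 ± 0.39. This lay within the software's error, and it was -0.058 with normexp and -0.023 with plain subtraction of the background.

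TGFB1 (A_24_P79054, NM_000660) was spotted 10 times and had scaled signals of 944.7 in DMSO, 1623 in PHA665752, 763 in sc siRNA and 907 in MET siRNA cells. The spots of PHA665752 and DMSO did not overlap, nor did those of MET siRNA and sc siRNA or those of the controls, sc siRNA and DMSO. The TGFB1 log2 ratio was 0.78 with PHA665752 (SE between spots 0.019, n = 10 and 10 spots). With MET siRNA it was 0.25 (SE between spots 0.017, n = 9 and 10 spots), but -0.052 when arrays were scaled to the median of the probes each had well above background. The TGFB1 difference between sc siRNA and DMSO was -0.31, larger in size than that with MET siRNA. TGFB3 (A_23_P88404, NM_003239) had scaled signals of 213 ± 21.5 in DMSO, 241 ± 24.4 in PHA665752, 276 ± 27.8 in sc siRNA and 330 ± 33.4 in MET siRNA cells. Its log2 ratios, 0.18 ± 0.21 for the inhibitor and 0.26 ± 0.21 for MET siRNA, were below the 0.38 ± 0.21 between the controls, and the former turned to -0.068 with 50th percentile scaling and the latter to -0.045 with scaling to the probes well above background.

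**Figure D1:**
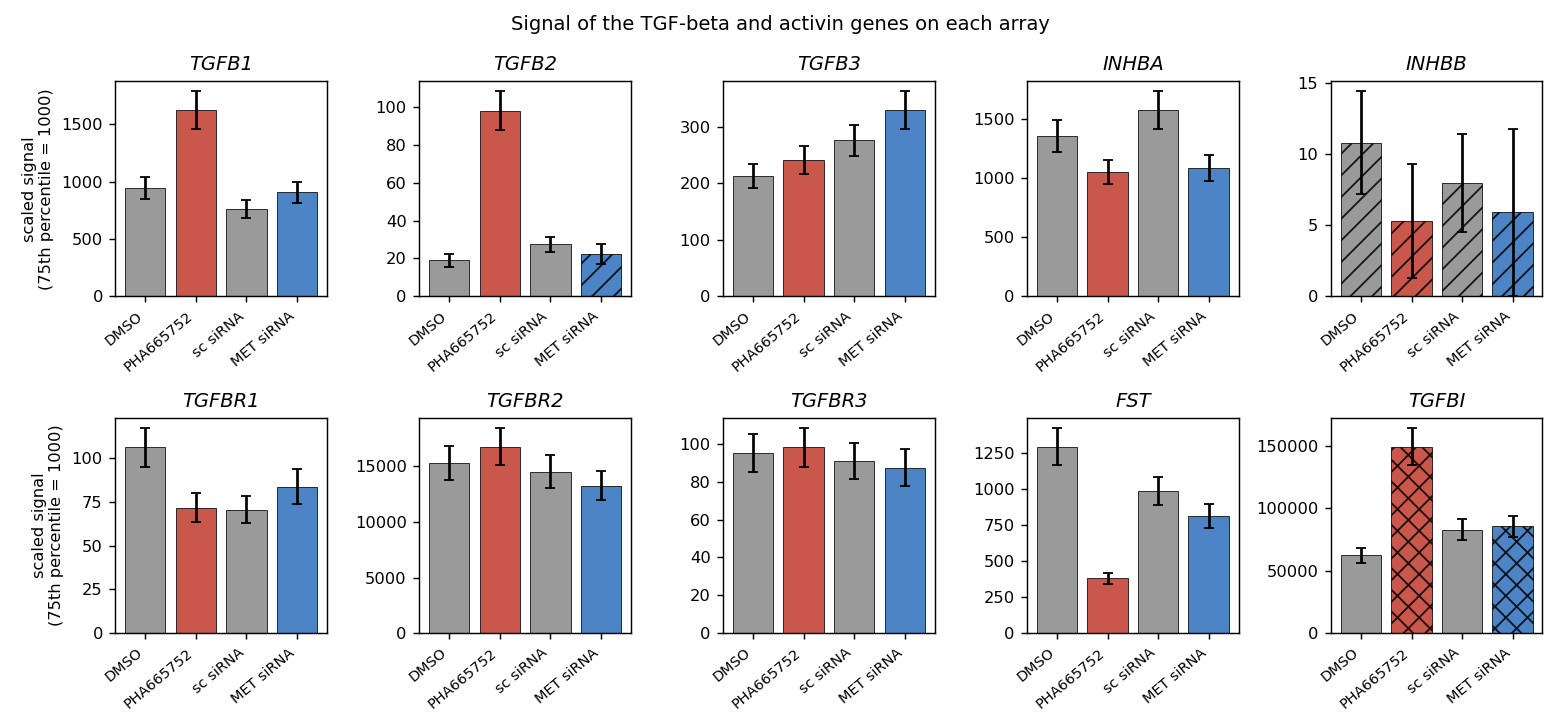
Scaled signal of the 10 TGF-beta and activin genes (vertical axis, 75th percentile of the array set to 1000, a separate scale for each gene) on the arrays of DMSO, PHA665752, sc siRNA and MET siRNA, 1 array each. Error bars are the error of a spot estimated by the scanning software, diagonal hatching marks a signal not well above background and crossed hatching a spot with an outlier mark; TGFB2 and TGFBI were highest and FST lowest with PHA665752, at 97.8, 149166 and 382.

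The activin subunit INHBA was lower after both treatments. INHBA (A_23_P122924, NM_002192) was spotted 10 times and had scaled signals of 1359 in DMSO, 1053 in PHA665752, 1578 in sc siRNA and 1084 in MET siRNA cells. Both treated arrays lay below both controls. Its log2 ratio was -0.37 with PHA665752 (SE between spots 0.019, n = 10 and 10 spots) and -0.54 with MET siRNA (SE between spots 0.016, n = 10 and 9 spots). The latter lay below the ratios of all but 3.56% of 13644 genes. Neither ratio reached 2-fold, and over 11 other ways of processing the siRNA ratio ran from -0.84 to -0.53. The INHBA difference between the controls was 0.22, opposite in sign. INHBB (A_23_P153964, NM_002193) had scaled signals between 5.29 and 10.8 and was well above background on none of the arrays, so no ratio was formed.

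FST, encoding follistatin, had the lowest ratio of the 10 genes with PHA665752. FST (A_23_P110531, NM_013409) was also spotted 10 times, with scaled signals of 1293 in DMSO, 382 in PHA665752, 984.5 in sc siRNA and 814 in MET siRNA cells. The inhibitor array was the lowest by far, and its spots did not overlap those of DMSO. The spots of sc siRNA did not overlap those of DMSO either. The FST log2 ratio was -1.76 with PHA665752 (SE between spots 0.025, n = 10 and 10 spots), a 3.39-fold lower signal, and only 2.52% of genes had a lower ratio. It ran from -2.01 to -1.60 over the other ways of processing. With MET siRNA it was -0.27 (SE between spots 0.027, n = 9 and 10 spots), smaller in size than the -0.39 between sc siRNA and DMSO. In bulk RNA, less RNA per cell and fewer cells with the transcript cannot be told apart.

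The sequence before the start site is shown for TGFB2 and FST, the genes past 2-fold with PHA665752 in opposite directions. The sequences are the 250 bases before the gene start in RefSeq on GRCh38.p14, the plus strand at chr1:218345086-218345335 for TGFB2 and the plus strand at chr5:53480379-53480628 for FST. Capitals mark matches, on either strand, to the motifs searched: the AP-1 site TGACTCA, the cAMP response element TGACGTCA, the SMAD-type motif CAGACA, the TATA box TATAAA and the GC box GGGCGG.
TGFB2: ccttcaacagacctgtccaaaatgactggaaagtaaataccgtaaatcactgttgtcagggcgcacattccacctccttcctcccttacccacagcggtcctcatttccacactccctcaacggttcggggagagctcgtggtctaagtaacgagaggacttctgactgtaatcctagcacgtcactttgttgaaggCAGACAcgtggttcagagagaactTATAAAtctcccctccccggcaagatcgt
FST: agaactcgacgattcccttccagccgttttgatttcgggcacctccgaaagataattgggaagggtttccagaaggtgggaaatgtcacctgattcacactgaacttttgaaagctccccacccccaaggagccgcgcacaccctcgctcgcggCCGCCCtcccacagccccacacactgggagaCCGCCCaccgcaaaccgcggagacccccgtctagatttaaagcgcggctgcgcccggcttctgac
TGFB2 held the SMAD-type motif from base -53 and a TATA box from base -29, counted back from the start. Among 27305 promoters of the same length these were present in 13.6% and 11.1%. FST held 2 GC boxes, a motif of 42.3% of promoters. The AP-1 site, in 4.16% of promoters, and the cAMP response element, in 1.77%, were in neither window, nor in those of the other 8 genes.

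None of TGFBR1, TGFBR2 and TGFBR3 was past 2-fold in any pair. TGFBR2 (A_23_P211957, NM_001024847), the type II receptor, had scaled signals of 15292 ± 1529 in DMSO, 16784 ± 1678 in PHA665752, 14545 ± 1454 in sc siRNA and 13277 ± 1328 in MET siRNA cells. These 4 values lay within the software's error of their neighbours, and the log2 ratios were 0.13 ± 0.20 with PHA665752 and -0.13 ± 0.20 with MET siRNA. The inhibitor ratio turned to -0.11 with 50th percentile scaling. TGFBR3 (A_23_P200780, NM_003243) had scaled signals of 95.3 ± 9.88, 98.1 ± 10.3, 90.8 ± 9.45 and 87.3 ± 9.82 in the same order. Its log2 ratios, 0.042 ± 0.21 and -0.056 ± 0.22, were no larger than the spot noise, and both signs turned under some alternatives.

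TGFBR1 (A_33_P3331451, NM_004612), the type I receptor, had scaled signals of 106 ± 11.1 in DMSO, 71.7 ± 8.09 in PHA665752, 70.5 ± 7.73 in sc siRNA and 83.7 ± 9.99 in MET siRNA cells. The DMSO array was the highest and the other 3 lay together. The TGFBR1 log2 ratio was -0.56 ± 0.22 with PHA665752, almost the same as the -0.59 ± 0.22 of sc siRNA over DMSO. With MET siRNA it was 0.25 ± 0.23, turning to -0.051 with scaling to the probes well above background. With normexp the inhibitor ratio was -0.13 and that of the controls -0.078.

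TGFBI encodes a secreted matrix protein and is named for its induction by TGF-beta. Its probe (A_23_P156327, NM_000358) had scaled signals of 62220 ± 6222 in DMSO, 149166 ± 14917 in PHA665752, 82847 ± 8285 in sc siRNA and 85357 ± 8536 in MET siRNA cells. The spots of both treated arrays carried a mark for an outlying local background and gave no ratio in the main processing. The local background behind these marks was 37.5 with PHA665752 and 43 with MET siRNA, against unscaled spot signals of 127313 and 73251. With the marks ignored, the TGFBI log2 ratio was 1.25 ± 0.20 with PHA665752, a 2.38-fold difference, and 0.060 ± 0.20 with MET siRNA. The controls, which carried no mark, differed by 0.41 ± 0.20.

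**Figure D2:**
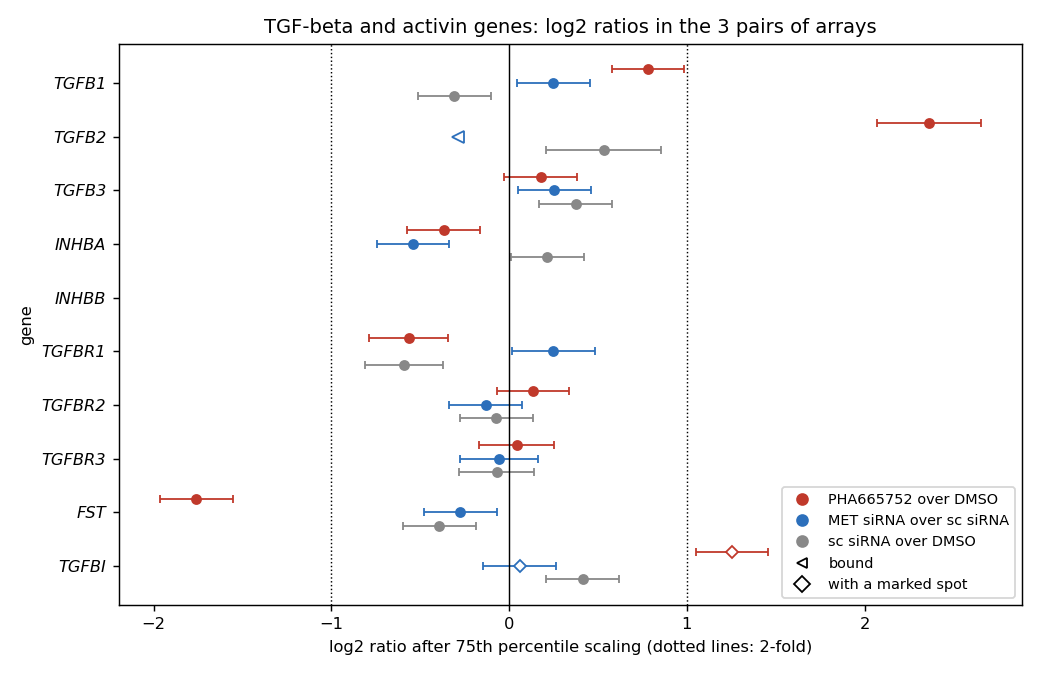
Log2 ratios (horizontal axis) of the 10 genes (vertical axis) for PHA665752 over DMSO, MET siRNA over sc siRNA and sc siRNA over DMSO, with 2-fold as dotted lines and bars for the software's error. The open triangle is a bound, open diamonds use a spot with an outlier mark and INHBB has no ratio; only TGFB2, FST and, with the mark ignored, TGFBI lay past 2-fold, all 3 with PHA665752.

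In the main processing, 8 of the 10 genes had a ratio in each treatment pair. With PHA665752, 1 was past 2-fold on the higher and 1 on the lower side, where 21.1% of 14318 genes were past 2-fold in either direction, 13.1% higher and 8.03% lower. The median log2 ratio of the 8 genes was 0.088 and that of all genes 0.075, or -0.16 and -0.17 with 50th percentile scaling. With MET siRNA 0 of 8 were past 2-fold, against 2.04% of 13644 genes higher, 0.696% lower and 2.73% either way, and the medians were -0.094 and -0.017. Between sc siRNA and DMSO 0 of 9 were past 2-fold, against 2.89% of 14272 genes higher, 1.16% lower and 4.05% either way. The shares among the 8 genes thus stood close to the background in both treatment pairs. Of the 8 genes, 5 differed more with PHA665752 than between the controls, and 2, INHBA and TGFBR2, did so with MET siRNA. For TGFBR2 this was -0.13 against -0.072, within the software's error. TGFB1 and TGFB3 were higher in both treatment pairs, and INHBA and FST were lower in both. TGFB2 (by its bound, which lay within the software's error), TGFBR1, TGFBR2 and TGFBR3 had opposite signs. Neither the comparison with the controls nor the tally of signs was made over all genes. These counts therefore have no background share and are not read as a property of the 10 genes.

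**Figure D3:**
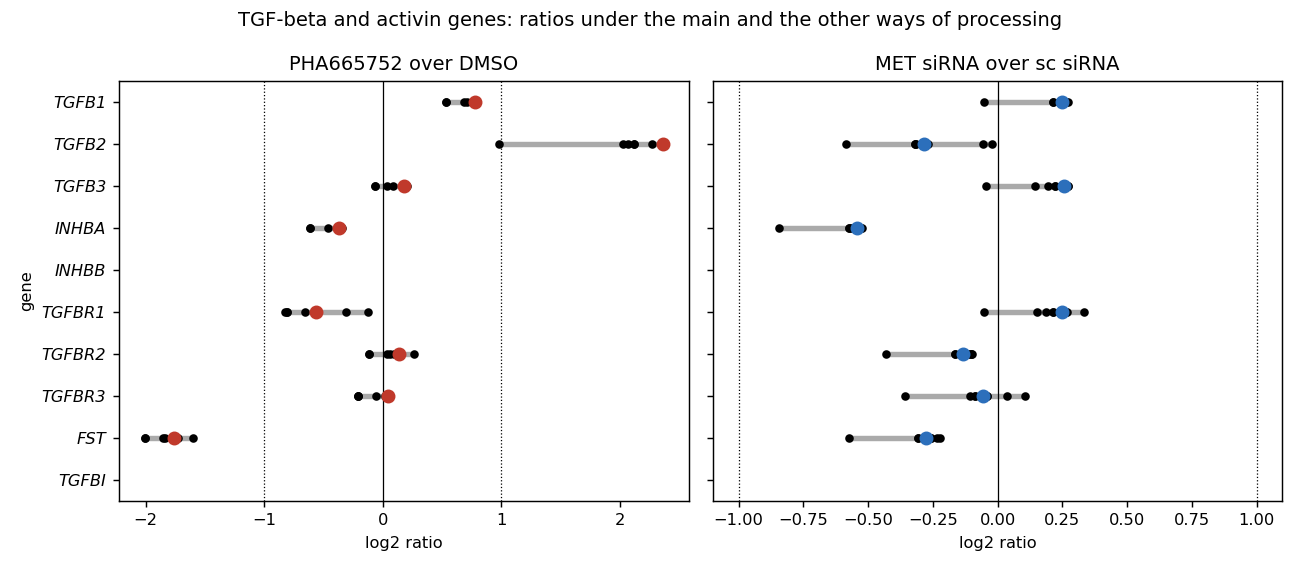
Log2 ratios (horizontal axis) of the genes (vertical axis) for PHA665752 over DMSO on the left and MET siRNA over sc siRNA on the right, under the main processing (large coloured point) and 11 other ways of processing (small black points), with 2-fold as dotted lines. TGFB2 ran from 0.98 to 2.36 and FST from -2.01 to -1.60 with PHA665752, while TGFB1, TGFB3, TGFBR1 and TGFBR3 crossed 0 with MET siRNA; INHBB and TGFBI had no ratio in the main processing and are not drawn.

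Of 57 other genes of the pathway, 50 had a ratio with PHA665752, and past 2-fold 13 of them were higher and 2 lower, beside 13.1% and 8.03% of all genes. With 50th percentile scaling 9 were higher and 5 lower. Their median was 0.45, against 0.075 over all genes. It was 0.20 against -0.17 with 50th percentile scaling and 0.054 against -0.032 when signals were floored at 5 and scaled to the median. With MET siRNA 2 of 47 were past 2-fold, both higher, beside 2.04% of all genes, and the median was 0.054, which turned to -0.25 with scaling to the probes well above background. That scaling moved the median of all genes in the siRNA pair by -0.30. Between the controls 3 of 50 were past 2-fold, beside 4.05% of all genes. The lists below hold too few genes for a count to be read closely against these shares.

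Of the other ligands and extracellular antagonists, 3 of 7 were past 2-fold with PHA665752, all higher, where 13.1% of all genes were, and with normexp 1 was. BAMBI, a pseudoreceptor that blocks TGF-beta signalling, reached a log2 ratio of 1.39 with the inhibitor and 0.054 with the siRNA, but 1.95 for sc siRNA over DMSO. LEFTY1, an antagonist of NODAL, stood at 1.81 with PHA665752, -0.00023 with MET siRNA and 0.49 for sc siRNA over DMSO. INHBE, the beta E subunit of inhibin, stood at 1.24 with PHA665752. INHBE was also higher with MET siRNA, at 1.51. The LEFTY1 and INHBE probes were dim, with scaled signals of 17.2 and 19.5 with DMSO. With normexp their ratios past 2-fold fell below it, at 0.73 for LEFTY1 and 0.45 and 0.50 for INHBE. NODAL and MSTN were well above background on none of the arrays.

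Of the activin receptors and endoglin, 1 of 6 was past 2-fold with PHA665752. ACVR2B, a type II activin receptor, stood at 1.51 with the inhibitor and 0.81 with the siRNA, against -0.20 for sc siRNA over DMSO. ACVR1, a type I receptor, stood at 0.98 and -0.11, and its dimmer probe at 1.12 with PHA665752. ACVR1C, another type I receptor, stood at 0.52 and -0.18, but of its dimmer probes 1 gave 0.81 and the other a bound of -1.49 with PHA665752. Of the genes of latency and activation, 4 of 10 were past 2-fold with PHA665752, all higher, again beside 13.1% of all genes, and with normexp 2 were. FBN1, encoding the microfibril protein fibrillin-1, stood at 1.92, LTBP3, which binds latent TGF-beta, at 1.37, and ITGB8, a subunit of an integrin that activates it, at 1.81, or 0.87 with normexp. With MET siRNA these ratios were 0.40, 0.36 and, as a bound, 0.75. For sc siRNA over DMSO they were -0.55, -0.034 and, as a bound, -1.14. For FBN1 and ITGB8 this was larger in size than with MET siRNA and opposite in sign. THBS1, encoding the TGF-beta activator thrombospondin-1, stood at 1.06 by a dim probe, or 0.48 with normexp, while its brighter probe, which had no value on the MET siRNA array, gave 0.21.

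Of the SMADs and their regulators, 1 of 12 was past 2-fold with PHA665752. PMEPA1, a SMAD-binding inhibitor that is itself induced by TGF-beta, stood at 1.53 with the inhibitor and 0.68 with MET siRNA, and at 2.24 and 0.70 by its other probe. SMAD7, the inhibitory SMAD, stood at 0.80 and 0.22, with 0.67 between the controls. SMURF2, a ubiquitin ligase for SMADs and receptors, stood at -0.43 in both treatment pairs. SMAD2, SMAD3 and SMAD4, the signal transducers, had ratios of 0.69, 0.32 and 0.26 with PHA665752. With MET siRNA these were -0.13, 0.27 and 0.10, and for sc siRNA over DMSO -0.36, -0.43 and 0.11.

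Of the textbook TGF-beta targets, 4 of 15 were past 2-fold on the higher side and 2 on the lower side with PHA665752, beside 13.1% and 8.03% of all genes. COL1A1, encoding a chain of type I collagen, had scaled signals of 779 in DMSO, 7769 in PHA665752, 838 in sc siRNA and 2445 in MET siRNA cells, so both treated arrays lay above both controls. Its log2 ratios were 3.32 and 1.54, and COL1A1 and INHBE were the only genes of the lists past 2-fold in both treatment pairs. FN1, encoding fibronectin, stood at 1.96 and 0.48, TAGLN, an actin-binding protein, at 1.03 and -0.073, and JUNB, an AP-1 subunit, at 1.16 and 0.43. TAGLN was past 2-fold with PHA665752 under 6 of 12 ways of processing, at 0.65 with normexp, and JUNB under 9, at 0.92 with 50th percentile scaling. JUNB also differed by -0.96 between sc siRNA and DMSO. ANGPTL4, a secreted inhibitor of lipoprotein lipase, stood at -3.09 and -0.95, and IL11, a cytokine of the IL-6 family, at -1.48 and -0.51. IL11 was also lower in sc siRNA than in DMSO cells, at -1.02. CCN2, a matricellular protein often used as a readout of TGF-beta, was also on the lower side, at -0.81 with PHA665752 and -0.26 for the siRNA pair. Beside the collagen and fibronectin values, 3 of 5 fibroblast markers were well above background on every array. Their summed signal, in multiples of the 75th percentile, was 1.35 in DMSO, 5.38 in PHA665752, 1.44 in sc siRNA and 2.13 in MET siRNA cells. PDGFRA and LUM, also fibroblast markers, were well above background on none of the arrays, and the part of these markers in the result was not tested. Of 5 blood and endothelial markers, 3 were likewise well above background on every array. Their summed signals were 9.55, 8.86, 15.5 and 15.1 in the same order, so the count of 3 does not set the fibroblast markers apart.

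**Figure D4:**
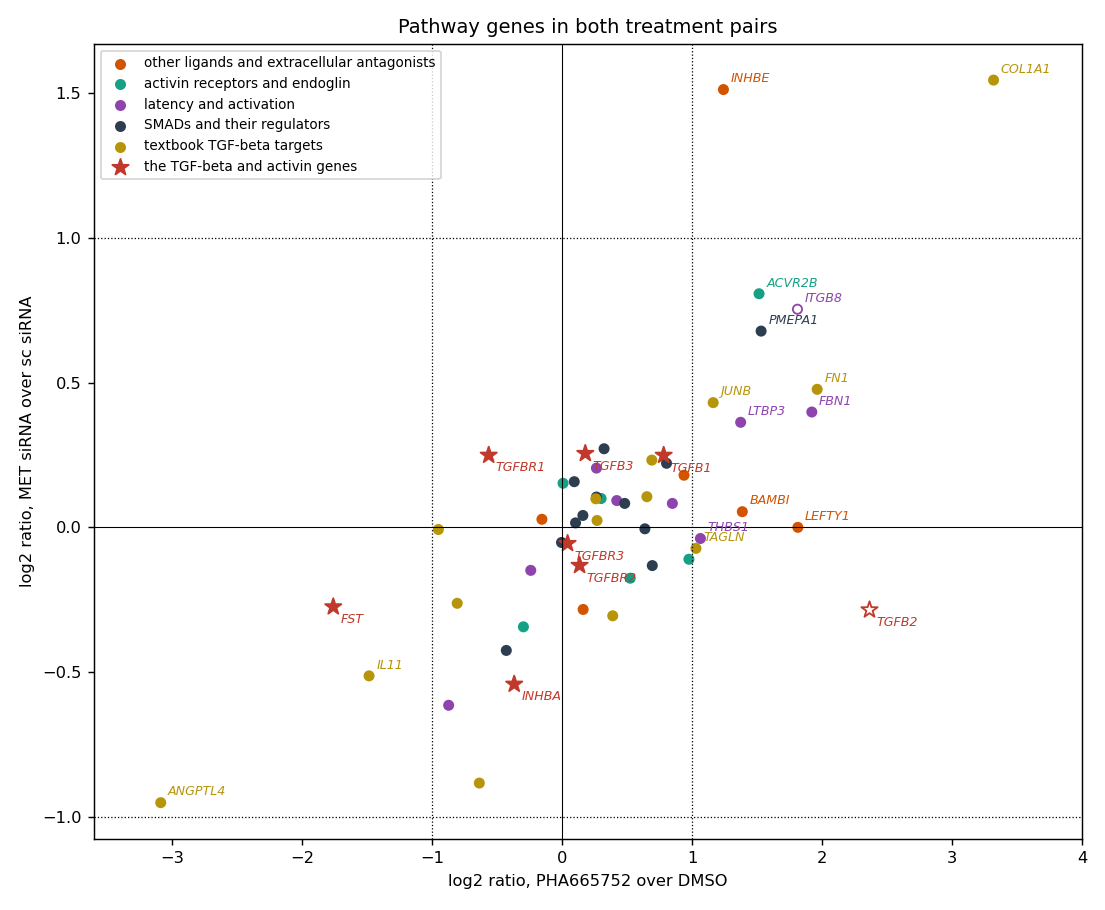
Log2 ratio with MET siRNA (vertical axis) against that with PHA665752 (horizontal axis) for the 8 genes with both ratios (stars) and 47 other pathway genes coloured by list; each point is the representative probe of a gene, open symbols hold a bound and dotted lines mark 2-fold. COL1A1 and INHBE lie past 2-fold on both axes, and TGFB2 lies at 2.36 with PHA665752 and below 0 with MET siRNA.

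Of the 10 genes, those well above background on all arrays with the highest and the lowest ratio with PHA665752 were TGFB1 and FST. By Euclidean distance over the log2 ratios of the 3 pairs, among 13072 genes measured above background throughout, SENP7, PNPLA6 and DCAF6 lay nearest to TGFB1, at distances of 0.035, 0.048 and 0.059. LAMA4, ZNF385D and MINDY4 lay nearest to FST, at 0.058, 0.100 and 0.109. These distances rest on 4 arrays and are a description.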

How the data were processed

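Hs746T RNA was measured on 4 Agilent human V2 arrays. The authors deposited scanner output of Feature Extraction (11.5.1.1 per the file headers), whose processed signal is a linear intensity after background subtraction and detrending, with no normalization between arrays. The series matrix, used as an alternative, equalled it within 0.05 for probes spotted once.

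Control spots and spots with outlier marks were omitted, spots of a probe averaged as log2 values and the 75th percentile subtracted (a signal of 831 to 990.1 by array). Between 61.1% and 68.2% of probes were well above background. A probe below this on 1 array of a pair gave a bound, set by its own signal or, if greater, the array's lowest signal well above background (10.2 to 17.4), and on both arrays no ratio. RefSeq accessions named 25767 probes (75.5%), using a GRCh38.p14 table for names and promoter sequences only. The brightest probe with a value on every array stood for a gene; past 2-fold was the call. No saturated spot was found.

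Named were the 10 genes, MET, list genes past 2-fold with a treatment, the 3 most changed of each list, and the 3 genes nearest to the extreme members; SMAD2, SMAD3, SMAD4, CCN2, NODAL and MSTN were named after their values were seen. The genes, lists and alternatives were chosen with earlier results of these data known. The rule for ratios was run on simulated data with changes put into bright probes only, which does not cover dim probes or bounds. Python 3.11.15, numpy 2.4.6, pandas 2.3.3, matplotlib 3.10.9, R 4.3.3 and limma 3.58.1 were used.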

Additional observations from a re-analysis of the deposited data

Results flagged for a closer look

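TGFB2 and TGFBR1 had ratios of opposite sign in the treatment pairs, and with 1 array per condition the difference was not tested. For TGFB2 the log2 ratio with PHA665752 exceeded that with MET siRNA by 2.65, the latter being a bound, with a software error of 0.39, on an array where the probe was not well above background. For TGFBR1 the log2 ratio with PHA665752 minus that with MET siRNA was -0.81, though the siRNA ratio of 0.25 ± 0.23 turned to -0.051 with scaling to the probes well above background. It was sc siRNA, not MET siRNA, that lay closest to the PHA665752 signal, at 70.5 against 71.7.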

How the results depend on the processing

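The alternatives were 50th percentile scaling, quantile normalization, scaling to the median of the probes well above background, normexp, plain subtraction of the background, median scaling after a floor of 5, dim probes unfiltered, dim probes dropped from a pair, background outlier marks ignored, the series matrix values and a gene's median probe. With normexp, 1 of the 10 genes was past 2-fold with PHA665752 in place of 2, and 1 list gene with MET siRNA in place of 2; scaling to the probes well above background gave 4 list genes with MET siRNA. The other counts over the 10 genes and over all list genes together stayed within 1.5 times the main count, 3 of the 10 genes with PHA665752 being the highest, with TGFBI or the dim INHBB added. Single lists moved further: with PHA665752 other ligands ran from 1 to 3, latency and activation from 2 to 4 and activin receptors from 1 to 2, and textbook targets with MET siRNA from 1 to 3. The median of all genes with PHA665752 moved by -0.25 with 50th percentile scaling, -0.11 with the floor and 0.13 with dim probes unfiltered. FST stayed past 2-fold under each alternative and TGFB2 under all but normexp. No ratio past 2-fold changed sign among the 10 genes. Dim signal limits TGFB2, INHBB, TGFBR1 and TGFBR3. No paired analysis was possible because each condition has 1 array, and no replicate could be left out.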
